A study of Homo sapiens with 2 samples.

Results

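Small nucleolar RNA (snoRNA) host genes are described here through the positions listed as crosslink sites of the splicing factor SRSF1 on their RNA. The 7 genes are GAS5, SNHG1, SNHG3, SNHG12, SNHG5, ZFAS1 and SNHG16. Their sites are the rows of 1 combined list whose midpoint and strand fall in a fixed hg19 window for each gene. All 7 genes held at least 1 site, and together they held 42 of the 6754 sites of the list (0.622%). The genes were chosen by the positions and tag counts of sites in this same list, so that they hold sites, and how many, is a description and not a test. The material was H1299, an established line from a human non-small cell lung cancer, in 1 group of 2 HITS-CLIP libraries labelled as replicates 1 and 2, with no treatment or genotype named. In HITS-CLIP, ultraviolet light bonds proteins to the RNA they contact in living cells, 1 protein is pulled down, and the attached RNA fragments are sequenced as tags. The list has no column for either library, and no control library was used here, so each value below is that of both libraries together and carries no replicate spread.

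Most snoRNAs of vertebrates are not made from genes of their own. They lie inside introns of a host transcript and are released from the excised intron, after which they guide the modification of ribosomal and other RNAs: box C/D snoRNAs (SNORD) direct ribose methylation and box H/ACA snoRNAs (SNORA) direct pseudouridylation. The hosts studied here make spliced RNAs that carry no long reading frame, so intron removal, the step SR proteins such as SRSF1 are known for, is also a step in making the snoRNAs. By gene names in RefSeq (GRCh38.p14), 11 snoRNAs lie inside GAS5, 9 inside SNHG1, 4 inside SNHG12, 3 each inside ZFAS1 and SNHG16 and 2 each inside SNHG3 and SNHG5. Of these 34 snoRNAs, 27 carry a SNORD name and 6 a SNORA name. GAS5 and SNHG1 host almost only box C/D snoRNAs, SNHG3 hosts the box H/ACA pair SNORA73A and SNORA73B, and SNHG12 is mixed.

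The snoRNAs of SNHG3 and ZFAS1 are shown because the spacing of the sites in these hosts is compared with them below. SNORA73A and SNORA73B belong to the U17 family, which takes part in processing the ribosomal RNA precursor. Their sequences are those of GENCODE release 29 (GRCh38, plus strand, chr1:28507366-28507571 and chr1:28508559-28508762), 5′ to 3′, and capitals mark bases that differ from, or have no partner in, the other copy.
SNORA73A: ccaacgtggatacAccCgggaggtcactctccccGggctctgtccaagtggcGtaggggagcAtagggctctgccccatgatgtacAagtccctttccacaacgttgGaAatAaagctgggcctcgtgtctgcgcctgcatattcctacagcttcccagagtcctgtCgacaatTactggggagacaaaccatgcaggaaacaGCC
SNORA73B: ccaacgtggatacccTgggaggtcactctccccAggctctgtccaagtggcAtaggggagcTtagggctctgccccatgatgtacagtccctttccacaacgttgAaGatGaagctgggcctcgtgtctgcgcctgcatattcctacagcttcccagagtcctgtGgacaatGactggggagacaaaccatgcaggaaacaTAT
The 2 copies are 206 and 204 nt long and identical in 192 of 206 aligned columns (93.2%), with 12 mismatches and 2 gap columns. Their longest identical stretch is 54 nt. In both, ACA stands 3 nt from the 3′ end, where box H/ACA snoRNAs carry their ACA box. GGAGA, a purine-rich word of the kind SRSF1 is known to prefer, occurs once in each copy on the sense strand, the strand searched, at base 181 of SNORA73A and base 179 of SNORA73B. It also occurs in 81.0% of the 84 GENCODE snoRNAs of 180 to 230 nt, a set in which these copies are counted, so its presence does not set the pair apart.

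ZFAS1, a transcript that starts beside the protein-coding gene ZNFX1 and runs the other way, hosts 3 box C/D snoRNAs. They are given from GENCODE (GRCh38, plus strand, chr20:49278940-49279028, chr20:49280319-49280409 and chr20:49280683-49280772) with TGATGA, the core of box C, and the last CTGA, box D, in capitals.
SNORD12C: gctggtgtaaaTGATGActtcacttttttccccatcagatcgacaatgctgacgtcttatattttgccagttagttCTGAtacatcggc
SNORD12B: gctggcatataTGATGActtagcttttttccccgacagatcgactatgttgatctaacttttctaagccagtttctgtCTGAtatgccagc
SNORD12: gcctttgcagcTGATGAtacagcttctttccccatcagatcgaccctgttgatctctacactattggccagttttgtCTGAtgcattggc
TGATGA was found on the sense strand in 76.9% of the 260 GENCODE SNORD transcripts of 60 to 130 nt. The 3 copies of ZFAS1 are less alike than the SNORA73 pair: their pairwise identities are 74.2%, 72.8% and 70.1%, and no pair shares an identical aligned stretch over 18 nt.

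The list holds sites of 2 kinds. At a truncation site, tags end at a position read as a stop of reverse transcription. The list gives the tags truncated there and the number expected per position of the surrounding tag cluster. At a mutation site it gives the tags covering the position and the tags misread there. Of the 42 host gene sites, 37 were truncation sites (88.1%, exact 95% Clopper-Pearson interval 74.4 to 96.0%) and 5 were mutation sites, where the whole list had 70.0% truncation sites. The intervals cover counting error only. GAS5, SNHG1 and SNHG3 held the 5 mutation sites, and the other 4 genes held none. GAS5 had 14 sites, SNHG1 9, SNHG3 7, SNHG12 5, ZFAS1 4, SNHG16 2 and SNHG5 1. Per length of window, GAS5 was highest at 3.33 sites per 1000 nt, followed by SNHG1 at 2.25, SNHG3 at 1.37 and SNHG12 at 1.11. SNHG5 had 0.555, ZFAS1 0.360 and SNHG16 0.260 sites per 1000 nt. The order depends on the length used: from first to last site, SNHG3 had 5.15 sites per 1000 nt, above GAS5 with 3.95 and SNHG1 with 3.04. The length that SRSF1 could reach in each RNA (exons, introns, snoRNAs) was not known for this build, and the abundance of the transcripts was not measured, so these densities do not rank how strongly the RNAs were bound.

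**Figure D1:**
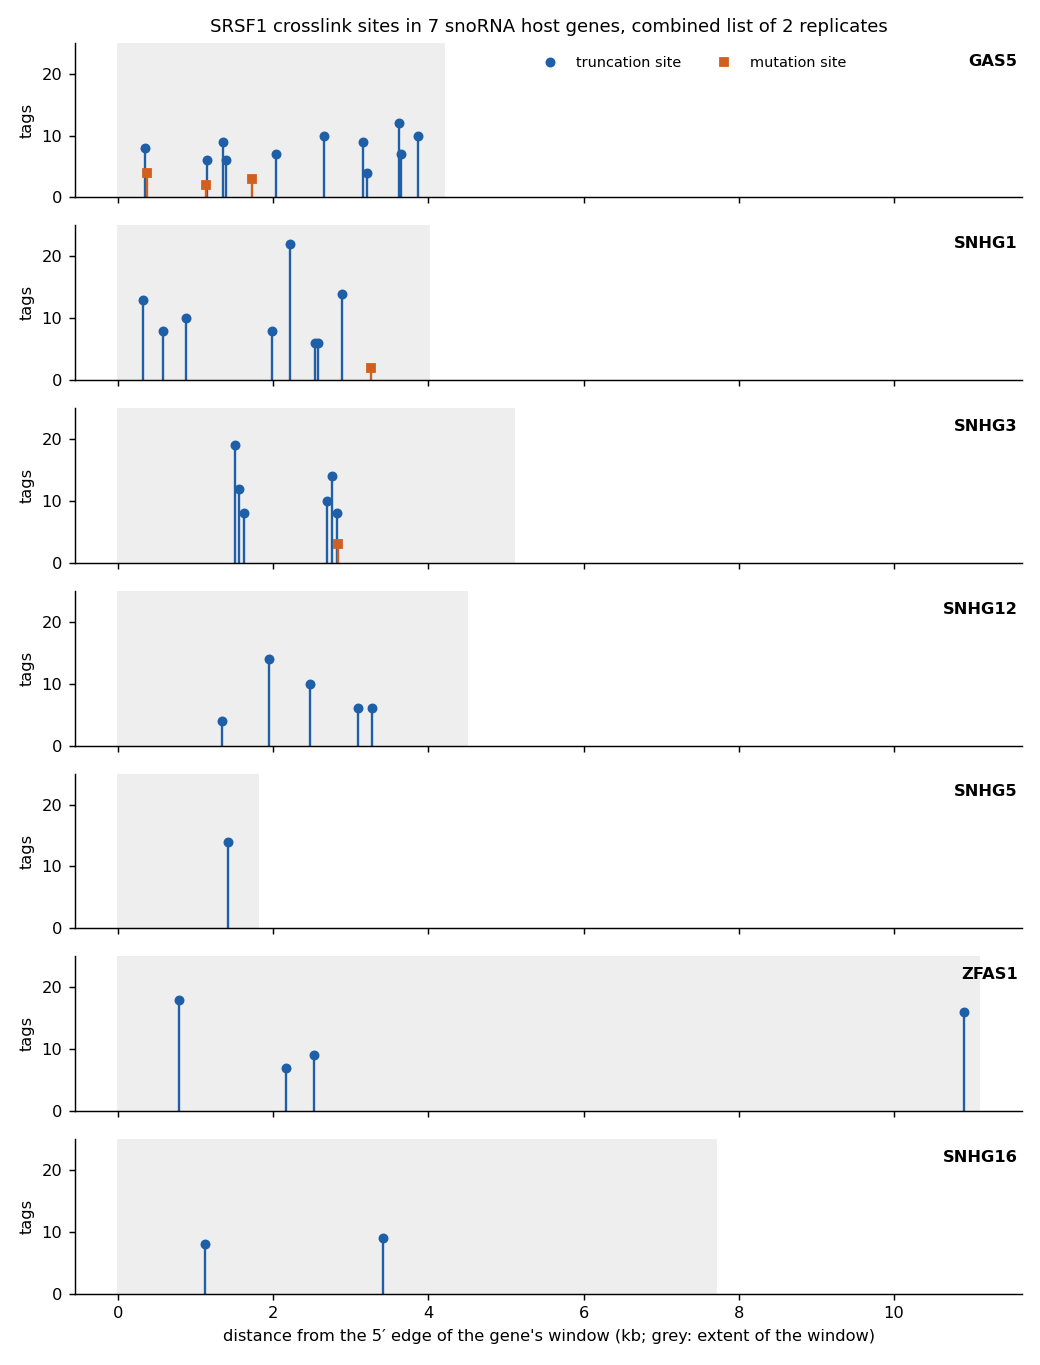
Listed crosslink sites along the 7 host gene windows. The x axis is the distance from the 5′ edge of the window in kb. The y axis is the truncated tags (blue circles) or mutated tags (orange squares) at each site, and grey marks each window. The sites of GAS5 are spread over 3542 nt with at most 12 truncated tags each, those of SNHG3 fall in 2 groups, and the highest site, with 22 tags, is in SNHG1.

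The windows were 1801 nt (SNHG5) to 11101 nt (ZFAS1) long, on the minus strand for GAS5, SNHG1, SNHG12 and SNHG5 and on the plus strand for SNHG3, ZFAS1 and SNHG16. They were wide enough that their limits decided no member. The site nearest a limit from inside was 201 nt from the 3′ edge of the ZFAS1 window, and the nearest on the same strand outside was a truncation site with 13 tags, 10183 nt 3′ of the SNHG1 window. No window held a site on the opposite strand. In the GRCh38 annotation TRNAU1AP overlaps SNHG12, and ZBTB37 and GAS5-AS1 overlap GAS5, all on the opposite strand. Genes opposite the other hosts were not listed. RCC1, a coding gene, overlaps SNHG3 on the same strand, so tags in the SNHG3 window may belong to RNA of either gene.

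Tag numbers at the host gene truncation sites ran from 4 to 22, with a median of 9 (quartiles 7 and 12) where the whole list had a median of 6 (quartiles 5 and 9). Of the 37 sites, 16 (43.2%, 27.1 to 60.5%) had 10 or more truncated tags, beside 21.2% of all truncation sites of the list. They came from 6 genes, all but SNHG16. The expected number per position was higher too, with a median of 0.40 tags against 0.19 in the list, and 31 of the 37 sites (83.8%) were above the list's median, beside 49.4% of all truncation sites. Observed over expected tags gave a median ratio of 28.6 (range 14.3 to 56.3), where the list had 35.3. More truncated tags thus came with denser clusters, and the ratio, which sets a site against its own cluster, was not higher than in the list. These values are not free of each other. No listed truncation site had under 4 tags, so a cluster with few expected tags can only be listed with a high ratio. Site calling may also ask for more tags where more are expected. How much of the lower median ratio follows from this was not tested. The genes were chosen with the list in view, so no test is given. The 85-site locus that tops the list, chr11:65266526-65273537 on the plus strand, went further the same way, with a median of 11 truncated tags, 0.785 expected and a ratio of 14.1.

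**Figure D2:**
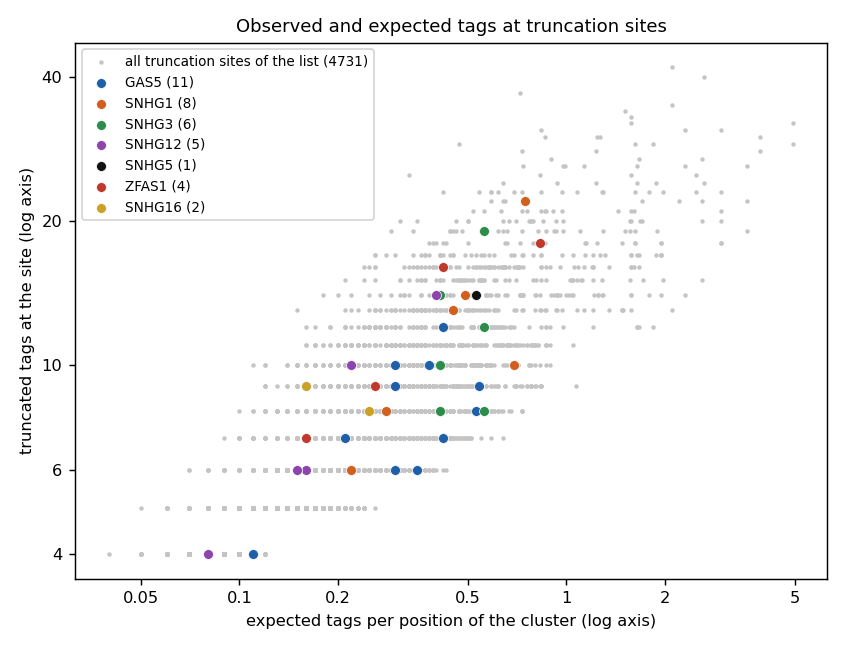
Truncated tags at each truncation site (y, log axis) against the tags expected per position of its cluster (x, log axis), for all 4731 truncation sites (grey) and the 37 host gene sites coloured by gene. Host gene sites lie inside the grey cloud, mostly to the right of the list's median of 0.19 expected tags. Those of SNHG12 run from 4 tags, the lowest number in the list, to 14.

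GAS5, first known as a transcript that accumulates when growth is arrested, held the most sites. Joined over gaps of up to 1000 nt, its 14 sites formed 1 locus of 3542 nt, and 9 of the 5199 loci of the list had 14 or more sites. Loci of 5 or more sites were 1.38% of the list, and GAS5, SNHG1 and SNHG12 each had 1. From the 5′ end (minus strand), the first truncation site, chr1:173836848-173836868, had 8 truncated tags against 0.53 expected. The next, at chr1:173836046-173836066, had 6 against 0.35. A cluster with 2 sites followed, with 9 tags at chr1:173835840-173835860 and 6 at chr1:173835804-173835824, both against 0.30. In this 5′ part no site passed 9 tags.

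In the middle of GAS5, chr1:173835156-173835176 had 7 truncated tags against 0.21 expected and chr1:173834531-173834551 had 10 against 0.38. Farther 3′, chr1:173834032-173834052 had 9 tags against 0.54, and its neighbour at chr1:173833984-173834004 had 4 against 0.11. The highest GAS5 site was chr1:173833574-173833594 with 12 truncated tags, in 1 cluster with a site of 7 tags at chr1:173833541-173833561, both against 0.42 expected. The last, chr1:173833327-173833347, had 10 tags against 0.30. The sites of GAS5 were thus many: 11 truncation sites between 4 and 12 tags with a median of 8, and no single dominant position. They lay in 9 tag clusters, out of 25 that the cluster numbers span from the first to the last (36.0%). Gaps between neighbouring truncation sites had a median of 312 nt and ran from 33 to 802 nt.

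GAS5 also held 3 of the 5 mutation sites. The deepest of all 5, chr1:173836823-173836843, was covered by 26 tags of which 4 were mutated (15.4%), and it lay 25 nt 3′ of the first truncation site of the gene. At chr1:173836052-173836072, 2 of 6 tags were mutated (33.3%), 6 nt 5′ of a truncation site and overlapping its interval. At chr1:173835465-173835485, 3 of 14 tags were mutated (21.4%), and the nearest truncation site was 309 nt away. The other 2 mutation sites were in SNHG1 (chr11:62620133-62620153, 2 of 7 tags, 28.6%) and SNHG3 (chr1:28835230-28835250, 3 of 20 tags, 15%). The SNHG3 site lay 23 nt 3′ of a truncation site, and the SNHG1 site 366 nt 3′ of the nearest one. In all, 3 of 5 had a truncation site within 50 nt, beside 16.4% of the list's mutation sites, and 3 of 5 were covered by 10 or more tags, beside 19.1%. With 5 sites the first share could lie anywhere from 14.7 to 94.7%.

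SNHG1, the host of a series of SNORD genes, held the site with the most truncated tags of the 7 genes. Against its cluster it did not lead: its ratio of observed to expected tags was 29.3, below the 56.3 of a SNHG16 site. On the minus strand, chr11:62621179-62621199 had 22 truncated tags against 0.75 expected, a number that 68 of the 4731 truncation sites of the list (1.44%) reached. A further 14 tags stood at chr11:62620499-62620519 and 13 at chr11:62623070-62623090, the most 5′ site. The remaining 5 truncation sites had 6 to 10 tags. Its sites fell in 2 loci, 3 sites over 575 nt on the 5′ side and 6 sites over 1299 nt on the 3′ side, parted by a gap of 1105 nt between truncation sites. Tag numbers in SNHG1 spanned 6 to 22, beside 4 to 12 in GAS5, with a median of 9 over 8 truncation sites. Only the site with 22 tags was above 14. The ratios of observed to expected tags spanned 14.5 to 29.3 in SNHG1 and 15.1 to 36.4 in GAS5. In 1 cluster 2 sites stood 35 nt apart with 6 tags each.

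SNHG3 showed a repeated pattern. Its 6 truncation sites lay in 2 tag clusters of 3 sites each. In the 5′ cluster, chr1:28833892-28833912 had 19 truncated tags, chr1:28833953-28833973 had 12 and chr1:28834016-28834036 had 8, each against 0.56 expected. In the 3′ cluster, chr1:28835084-28835104 had 10, chr1:28835145-28835165 had 14 and chr1:28835207-28835227 had 8, each against 0.41. The spacing of the sites was nearly the same in both clusters, 61 and then 63 nt in the first, and 61 and then 62 nt in the second. The clusters were shifted against each other by 1192, 1192 and 1191 nt, site by site. The heights were less alike: the first site was the highest of the 5′ cluster and the middle one the highest of the 3′ cluster, with sums of 39 and 32 truncated tags.

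The list holds 31 clusters with exactly 3 truncation sites, and both gaps lay between 60 and 64 nt in 2 of them, those of SNHG3. Among the 465 pairs that these 31 clusters form, the SNHG3 pair alone had the same gaps to within 1 nt. This count was made after the spacing had been seen. The 5′ ends of SNORA73A and SNORA73B are 1193 nt apart in GRCh38, next to the 1192 nt between the first sites of the clusters in hg19. Each cluster's intervals span 145 and 144 nt, less than the length of either snoRNA. The copies shown above share 93.2% of aligned bases and stretches of up to 54 nt. How the authors treated tags that match several places is not given in the sources used here, so tags of 1 copy may have been listed at the other, and the 2 clusters may not be independent observations.

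**Figure D3:**
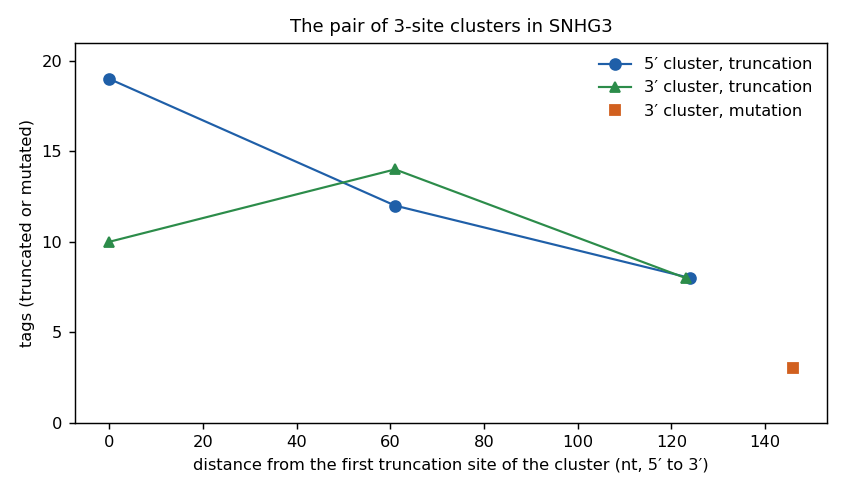
Tags at the SNHG3 sites (y) against the distance in nt from the first truncation site of the same cluster (x), for the 5′ cluster (blue circles), the 3′ cluster (green triangles) and the mutation site beside the 3′ cluster (orange square). The truncation sites of both clusters stand at nearly equal distances, while the first site has 19 tags in one cluster and 10 in the other.

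ZFAS1 held 4 truncation sites and no mutation site. Its first site, chr20:47895472-47895492, had 18 truncated tags against 0.83 expected, the densest cluster among the host genes. The next 2, chr20:47896851-47896871 and chr20:47897215-47897235, had 7 against 0.16 and 9 against 0.26. The fourth, chr20:47905589-47905609, stood 8374 nt farther 3′ with 16 tags against 0.42. ZFAS1 thus had 2 high and 2 lower sites, with the high ones at the outer positions. The 4 sites are among the 209 that chromosome 20 holds.

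The distances between the first 3 ZFAS1 sites were 1379 and 364 nt. In GRCh38 the 5′ ends of SNORD12C, SNORD12B and SNORD12 are 1379 and 364 nt apart, the same numbers. This led to the same comparison, chosen after the values were seen, in the 5 hosts with at least 2 snoRNAs in GENCODE release 29, which lists none inside GAS5 and 1 inside SNHG5. For SNHG1 it lists 7, without the SNORD29 and SNORD31 named in RefSeq, so the counts for this host, and its sites at 1659, 2215 and 2250 nt that are near none of the 7, depend on that release. In each host the snoRNA 5′ ends were measured from the first snoRNA and the truncation sites from the first truncation site, each within its own build. No position was carried from one build to the other, and no site was assigned to a snoRNA. Of 14 snoRNAs after the first, 3 had a site at the same distance to within 1 nt, 6 to within 10 nt and 9 to within 30 nt. Both later snoRNAs of ZFAS1 and SNORA73B of SNHG3 made up the first count and are in the wider counts too. Their distances prompted the comparison or were known before it, so they are no new cases. In SNHG1, 3 of the 6 later snoRNAs were within 10 nt and 4 within 30 nt. SNHG12 (3 later snoRNAs) and SNHG16 (2) had none within 10 nt and 1 each within 30 nt. The count within 30 nt includes SNORA61 of SNHG12, 29 nt from its nearest site by this measure. No share for positions taken at random was computed to set beside these counts. Each count sets the first site of a host beside its first snoRNA, and whether these belong together was not tested.

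In SNHG1, SNORD26 lies 266 nt after SNORD25, SNORD27 lies 549 nt and SNORD30 lies 1900 nt after it, and truncation sites stood 259, 554 and 1891 nt after the first. SNORD22 lies 2597 nt after SNORD25, beside a site at 2571 nt. SNORD28, at 937 nt, had no site nearer than 383 nt by this measure, and RF00099, at 1347 nt, none nearer than 312 nt. In SNHG16, which hosts the SNORD1 family, the 2 truncation sites were 2300 nt apart, beside 2318 nt from SNORD1C to SNORD1B, and SNORD1A had no counterpart. In SNHG12, SNORA44 and SNORA61 lie 544 and 1163 nt after SNORA16A, and sites stood 605 and 1134 nt after the first. SNORD99, the fourth snoRNA, had no site nearer than 299 nt by this measure. From the second site on, a start picked after the values were seen, the gaps between sites were 529, 619 and 182 nt. Those from SNORA16A to SNORA44, SNORA61 and SNORD99 in turn are 544, 619 and 1071 nt. How closely SNHG12 lines up thus depends on which site is set beside the first snoRNA. A host with more sites has more chances to offer a near distance, and that part of the agreement was not tested. Whether these tags came from mature snoRNAs, from introns still in the host transcript or from exons nearby was not tested. Nor was it tested whether tags at a truncation site ended at a crosslink or at the end of an RNA.

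**Figure D4:**
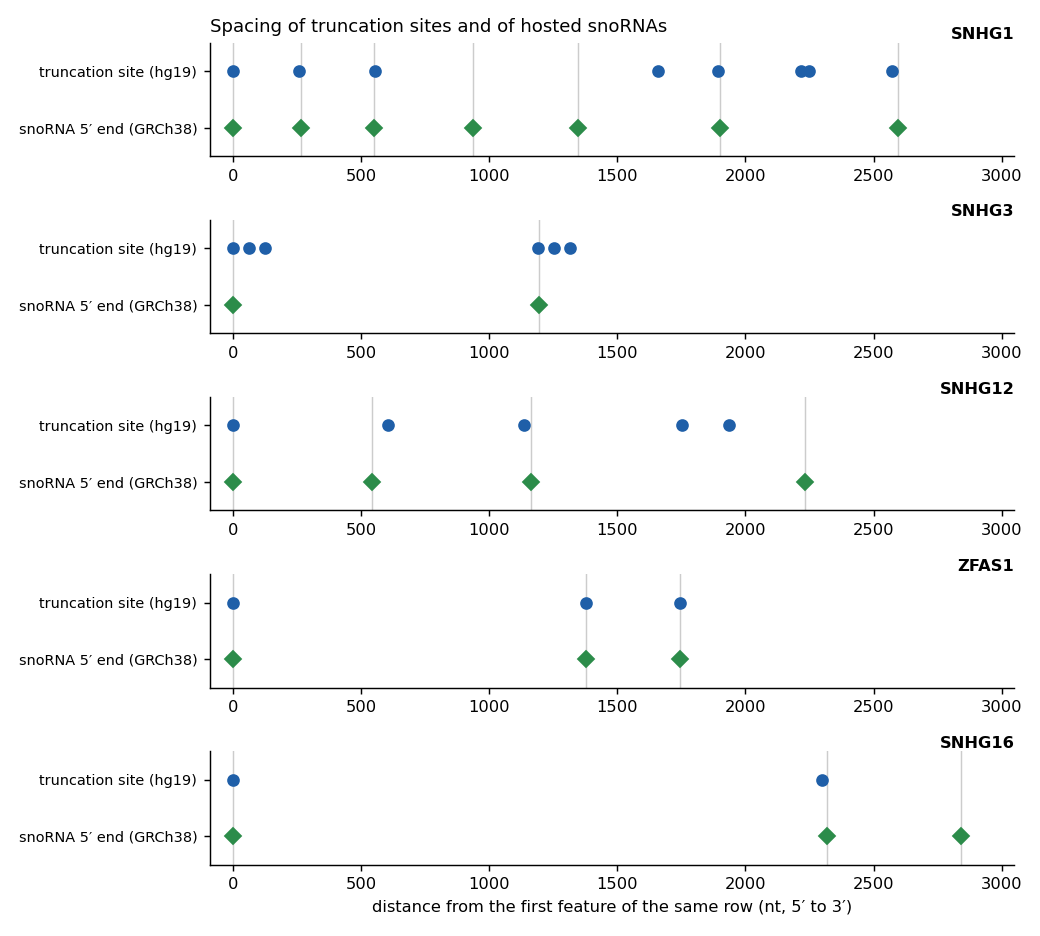
Distances of truncation sites (blue circles, hg19) and of the 5′ ends of hosted snoRNAs (green diamonds, GRCh38) in 5 host genes, each row measured in nt from its own first feature, with grey lines at the snoRNAs. The ZFAS1 sites stand at 1379 and 1743 nt like the snoRNAs, and the fourth ZFAS1 site, at 10117 nt, is beyond the axis.

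SNHG12, whose snoRNAs are mostly of the box H/ACA type, held 5 truncation sites in 5 clusters. From the 5′ end (minus strand), chr1:28908149-28908169 had 4 truncated tags against 0.08 expected, chr1:28907544-28907564 had 14 against 0.40 and chr1:28907015-28907035 had 10 against 0.22. The last 2, chr1:28906396-28906416 and chr1:28906214-28906234, had 6 tags each, against 0.16 and 0.15. Its ratios of observed to expected tags, the lowest 35.0, were all above the host gene median of 28.6. The whole list had a median of 35.3 (quartiles 26.1 and 44.4), and the highest SNHG12 ratio, 50, rests on 4 tags. SNHG16 had 8 tags against 0.25 at chr17:74554904-74554924 and 9 against 0.16 at chr17:74557204-74557224, ratios of 32.0 and 56.3.

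SNHG5, host of the SNORD50 pair, held 1 site in its 1801 nt window, the shortest of the 7. At chr6:86387077-86387097 on the minus strand 14 tags were truncated against 0.53 expected, a ratio of 26.4. The same tag number was the highest in SNHG12, while SNHG16 stayed at 9 and GAS5 at 12. By their highest site the genes stood in the order SNHG1 with 22 tags, SNHG3 with 19, ZFAS1 with 18, SNHG12 and SNHG5 with 14, GAS5 with 12 and SNHG16 with 9. Neighbours in this order differ by a few tags of 1 list without replicates, so only the order as listed is given. GAS5 was first by number of sites and sixth by highest site.

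More than 1 truncation site per tag cluster was listed in 3 of the 7 genes, in 5 clusters: 2 of GAS5, 1 of SNHG1 and the 2 of SNHG3. They held 12 of the 37 sites (32.4%, 18.0 to 49.8%), beside 13.1% of the truncation sites of the list. Without SNHG3, whose 2 clusters may not be independent, the share was 6 of 31 (19.4%, 7.45 to 37.5%). The 2-site clusters of GAS5 had gaps of 33 and 36 nt and that of SNHG1 35 nt, while the gaps in SNHG3 were 61 to 63 nt. Over the whole list such gaps had a median of 53 nt (quartiles 37 and 82) and were never below 26 nt.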

How the data were processed

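SRSF1 HITS-CLIP was done on H1299 cells in 2 libraries of 1 group. Per the submitters' processing notes, cutadapt and BWA 0.7 were used on hg19. How duplicates and tags matching several places were handled, and how sites were called, is not given in the sources used here. What the authors deposited is 1 list of tag counts per site, with no column per replicate. Row names follow the CTK toolkit, and the meaning given here to observed, expected, covering and mutated tags follows that naming. Library totals are not given, so depth is unknown, and a missing site does not show missing contact.

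Sites were taken by midpoint and strand in the 7 windows with Python 3.11.15 and pandas 2.3.3. The members, windows and lists were chosen with earlier results of these data known. By the rule set for named items, all 7 genes were named, with all sites of GAS5 and the highest of each other gene; further sites were named after their values were seen. Sites at most 1000 nt apart on a strand were joined into loci, and shares carry exact 95% Clopper-Pearson intervals (scipy 1.17.1). Sequences and snoRNA distances come from GENCODE 29 (GRCh38) and were aligned globally with biopython 1.88. No hg19 annotation or genome was used, so placing sites in exons, introns or snoRNAs and counting other host genes were not run. The counting was tested on simulated data: 70 of 70 planted sites and 35 of 35 planted distances were recovered. All were planted inside a window on its strand, so wrong inclusion near a limit or from the opposite strand was not tested. Alternatives covered window limits, merging, tag minimum, distance and leaving out each gene.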

Additional observations from a re-analysis of the deposited data

How the results depend on the processing

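The number of host gene sites, 42, stayed 42 with any overlap, with whole intervals and with windows widened by 1000 nt. It was 35 after merging sites within 50 nt and 32 above the median tag count of each kind. Over the whole list, 47.8% of truncation sites had 7 or more tags, above their median of 6. The same share of mutation sites is not given here. Of 45 alternative values, 40 stayed within the limits set for a small move and 5 did not. For medians and shares the limit was their own 95% interval. For the medians of the 5 mutation sites this interval was the full range of the values, so no setting could leave it. Leaving out SNHG12, SNHG5, ZFAS1 or SNHG16 removed no mutation site. The 40 are thus no measure of how stable the results are. The median ratio of observed to expected tags, 28.6, was 22.2 with 0.1 added to the expected tags. Of the 3 mutation sites near a truncation site, 1 remained within 10 nt. With the span of the sites as length, sites per 1000 nt rose to 5.15 in SNHG3, 2.56 in SNHG12 and 0.862 in SNHG16; SNHG5, with 1 site, has no span. The share of sites in clusters with several sites was taken without each gene as a setting chosen after seeing the data. Without GAS5 the truncation share was 92.9%, and without each other gene 86.5 to 88.6%. No replicate could be left out. No paired analysis was possible because there is 1 group and no column per replicate. The unknown depth limits the mutation sites, which rest on 2 to 4 mutated tags.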
